A study of Drosophila melanogaster with 12 samples.

Results

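Cytochrome P450 genes of the fruit fly Drosophila melanogaster were followed in whole third-instar larvae, in mutants without the transcription factor Mlx and in a wild-type line, on high and low sugar. Genes were taken by name, as those whose name in the deposited table begins with Cyp and a digit, and were kept at 10 or more counts in at least 3 of the 12 libraries. This left 69 of 86 such names, among 16413 gene names in all. One of the 69, Cyp1, carries the name of a cyclophilin, a protein-folding enzyme, and is not a P450, so 68 are P450 genes. RNA sequencing was done on 4 groups of 3 libraries, lettered A, B and C. These were mlx1 mutants (labelled Mlx -/-) on high sugar, wild type on high sugar, mlx1 mutants on low sugar and wild type on low sugar. All larvae grew on 10% yeast before transfer. High-sugar larvae were then fed 10% yeast with 20% sucrose and collected after 8 h. Low-sugar larvae were given fresh 10% yeast and collected after 1.5 h by the sample titles, while the column names of these libraries read 1 h.

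Diet thus goes with the hours after transfer and with a tag in the column names (L3 for high sugar, L2 for low sugar) whose meaning is not given, and these cannot be told apart. There was 1 line of each genotype, so a genotype difference cannot be told apart from any other difference between the lines. Whether the 3 libraries of each group are separate cultures is not given in the labels, so the p-values rest on a spread that may be technical. In whole larvae, fewer cells of a type and less RNA per cell cannot be told apart.

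P450s are heme enzymes that use molecular oxygen and electrons from NADPH to oxidise small molecules. Most sit in the endoplasmic reticulum and are served by P450 reductase (Cpr) and cytochrome b5, and a mitochondrial clan is served by ferredoxin (Fdxh) and ferredoxin reductase (dare). Insect P450s fall into 4 clans. The CYP3 clan, with families 6, 9 and 28, and parts of the CYP4 clan are known for breaking down plant toxins and insecticides in the midgut, the Malpighian tubules and the fat body. Other members make or break down the moulting hormone, or make the hydrocarbons that waterproof the cuticle. Mlx is the partner of Mondo, a transcription factor activated by sugar. The comparisons ask which P450 genes differ between the diets and which differ without Mlx.

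Library totals ran from 8923055 to 12506335 counts. The transcript of Mlx itself, named bigmax in the table, stood at 0.494 to 1.08 CPM (counts scaled to library size with TMM normalisation) in the mutant libraries and 26.2 to 34.1 CPM in wild type, as the labels say. Larval cuticle genes, which vary with the moult, differed between libraries of 1 group. On high sugar their mean log2 CPM was 3.97, 4.18 and 4.68 in libraries A, B and C of mutants, against 5.06, 4.91 and 3.01 in wild type. The low-sugar values were 3.55, 6.36 and 4.62 in mutants, against 4.05, 6.42 and 5.96 in wild type. Markers of muscle, midgut, neurons and hemocytes were detected in every library. Of 7 fat body markers, only Rfabg and Lsp1gamma had enough counts to test. Fbp1 was at 0 in all 12 libraries and Lsp2 in 9, Lsp1alpha and Fbp2 averaged at most 0.17 CPM in any group, and Lsp1beta at most 1.08 CPM.

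By family, the 69 members were 21 of family 4, 20 of family 6, 6 of family 12, 5 of family 9, 3 of family 28, 3 Cyp313 genes and 11 single members, Cyp1 included. By clan they were 31 of CYP3, 26 of CYP4, 8 of the mitochondrial clan and 3 of CYP2. Of the 69, 61 had 10 counts in every library, and none passed through 1 group only. Some passed through 1 genotype only. Cyp4ae1 and Cyp4d8 reached 10 counts only in mutant libraries, and Cyp6d2 only in wild-type libraries. Their genotype calls below run in the direction that let them in, so those calls are no independent support. Cyp4d8 was just inside the minimum, with 11, 22 and 9 counts in high-sugar mutants, 2, 4 and 4 in high-sugar wild type, 15, 5 and 6 in low-sugar mutants and 3, 0 and 2 in low-sugar wild type. Cyp312a1 was just outside it, with 10, 8 and 13 counts, 5, 6 and 7 counts, 3, 4 and 6 counts and 7, 2 and 5 counts in the groups in that order. The other 16 names left out were Cyp12d1-d, Cyp28c1, Cyp303a1, Cyp308a1, Cyp309a2, Cyp313a1, Cyp313a2, Cyp313a5, Cyp316a1, Cyp4d2, Cyp6a15Psi, Cyp6a19, Cyp6t1, Cyp6t2Psi, Cyp6t3 and Cyp9c1. Of these, Cyp12d1-d, a near copy of Cyp12d1-p, and Cyp6a15Psi had 0 counts in all libraries. A count of 0 here may also come from reads shared with a near copy, since how such reads were counted is not given. Cyp6a16Psi and Cyp9f3Psi were named as pseudogenes in the table and are annotated as protein coding in RefSeq.

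The P450 pool was largest on high sugar. Without Cyp1, the summed level on high sugar was 3432 to 3668 CPM in mutants and 3117 to 4658 CPM in wild type, where library A was lowest. On low sugar it was 1986 to 2043 CPM in mutants and 2377 to 2534 CPM in wild type, so the diets did not overlap in either genotype. The genotypes overlapped on high sugar and did not overlap on low sugar, where the mutants were lower. Of the clans, CYP3 had the largest difference in summed level between diets, in both genotypes. On high sugar its summed level was 1675, 1723 and 1538 CPM in mutants, against 1625, 2895 and 3010 CPM in wild type. The low-sugar sums were 937, 792 and 858 CPM in mutants, against 1101, 922 and 954 CPM in wild type. The CYP4 clan was as high on low sugar as on high sugar in wild type, with 1184, 1148 and 1196 CPM on high sugar and 1182, 1214 and 1279 CPM on low sugar. In mutants it was 1512, 1305 and 1464 CPM on high sugar and 876, 1015 and 900 CPM on low sugar, with no overlap.

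**Figure D1:**
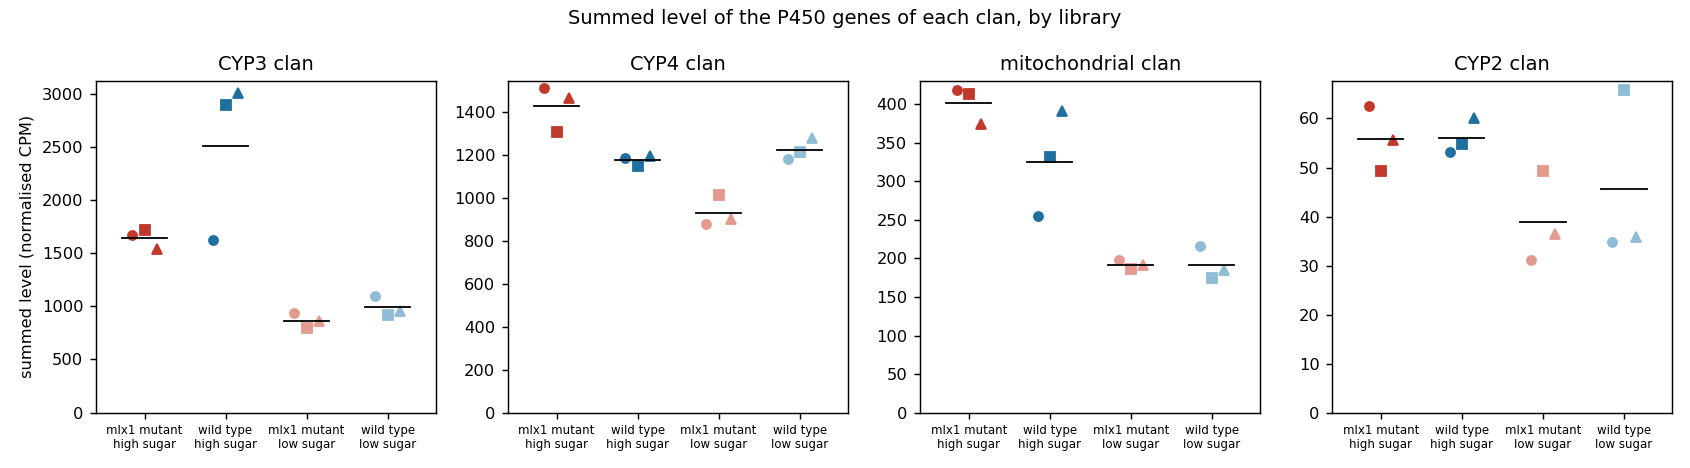
Summed level (TMM-normalised CPM, linear axis) of the members of each P450 clan, with 1 point per library (circle A, square B, triangle C) and a line at the mean of each group. The CYP3 panel shows wild type on high sugar at 1625, 2895 and 3010 CPM, and the mitochondrial panel shows both high-sugar groups above both low-sugar groups.

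Per kilobase of exon, the most abundant P450 was Cyp4g1, the enzyme of the oenocytes that makes cuticular hydrocarbons. On high sugar its level was 231 ± 40.8 CPM per kb in mutants and 190 ± 22.9 CPM per kb in wild type, and on low sugar 152 ± 15.8 CPM per kb in mutants and 216 ± 7.74 CPM per kb in wild type (SD, n = 3 each). Cyp9b2, Cyp6a23 and Cyp6d5 came next, with means of 148, 111 and 106 CPM per kb over the 4 groups. On high sugar Cyp9b2 stood at 90.2 ± 25 CPM per kb in mutants and 402 ± 174 CPM per kb in wild type, and on low sugar at 44 ± 13 CPM per kb in mutants and 55.3 ± 23.2 CPM per kb in wild type. By its mean it was above Cyp4g1 in the high-sugar wild-type group alone. Cyp12a4 followed with 74.4 CPM per kb. These means hide different orders within the groups. Cyp6a23 had 54 CPM per kb in mutants on high sugar, 31.2 CPM per kb in mutants on low sugar and 52.3 CPM per kb in low-sugar wild type, so its place rests on wild type on high sugar. In mutants on high sugar the P450s next to Cyp4g1 were Cyp4e3, Cyp6w1 and Cyp6d5, at 190, 169 and 145 CPM per kb. The cyclophilin Cyp1 had 661 CPM per kb.

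In wild type, high sugar came with higher levels of many CYP3 clan and mitochondrial P450s. By edgeR's quasi-likelihood test with Benjamini-Hochberg adjustment over 10045 genes, 27 of the 69 members passed at an adjusted p under 0.05, of which 23 rose and 4 fell. Among all genes tested, 23.1% passed, 11.5% higher and 11.6% lower, against 39.1% of the members. The median log2 fold change of the members was 0.39, against -0.05 for all genes. Of the 31 CYP3 clan members 16 rose and 2 fell, with a median of 0.72. Of the 26 CYP4 clan members 3 rose and 2 fell, with a median of 0.04. No test was made between the clans.

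Cyp9b2 and Cyp6a23, both of the CYP3 clan, showed large rises in wild type. Cyp9b2 had 336, 857 and 817 CPM on high sugar, against 133, 88.4 and 55.5 CPM on low sugar, a log2 fold change of 2.86 ± 0.45 (SE; adjusted p = 0.00201). Cyp6a23 had 296, 684 and 634 CPM on high sugar, against 108, 71.1 and 97.4 CPM on low sugar (2.55 ± 0.32, adjusted p = 0.000438). In both genes library A on high sugar was lowest of its group and still above every low-sugar library. Cyp6d4 followed the same order, with 21.7, 46.6 and 39.2 CPM on high sugar and 12.9, 6.75 and 8.74 CPM on low sugar (1.92 ± 0.34, adjusted p = 0.00282).

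Cyp6a17 had 21.6, 57.1 and 47.2 CPM on high sugar and 10, 7.35 and 5.92 CPM on low sugar in wild type (2.43 ± 0.32, adjusted p = 0.000615), again with library A lowest on high sugar. Almost all of these wild-type reads lay in the first exon entry of the gene, as given further below. Whether they include reads of the similar gene Cyp6a23 was not tested.

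Cyp6a9 and Cyp28a5 of the CYP3 clan also rose. Cyp6a9 had 19.9, 25.2 and 24.6 CPM on high sugar and 9.53, 7.74 and 8.45 CPM on low sugar in wild type (1.44 ± 0.16, adjusted p = 0.000108). Cyp28a5 had 93.1, 145 and 151 CPM on high sugar and 77.3, 61.8 and 59.3 CPM on low sugar (0.97 ± 0.17, adjusted p = 0.00199). Neither gene's groups overlapped. Cyp9f2, Cyp9f3Psi, Cyp309a1 and Cyp6a14 rose as well, by log2 1.31 ± 0.25, 1.13 ± 0.22, 2.17 ± 0.42 and 1.09 ± 0.23. Cyp311a1, a CYP4 clan enzyme of the anterior midgut known for a role in lipid handling and microvilli in larvae, rose by 2.24 ± 0.40 (10.8, 17.4 and 23.3 CPM on high sugar and 5.54, 2.48 and 2.91 CPM on low sugar; adjusted p = 0.00282).

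Of the 6 members of family 12, in the mitochondrial clan, 4 rose on sugar in each genotype. Cyp12a4, whose overexpression gives resistance to the insecticide lufenuron, had 97.7, 134 and 165 CPM on high sugar and 88.1, 72.5 and 80.9 CPM on low sugar in wild type (0.72 ± 0.16, adjusted p = 0.0082). Its neighbour Cyp12a5 had 39.5, 64 and 80.1 CPM on high sugar and 24.5, 19.8 and 14.7 CPM on low sugar (1.64 ± 0.25, adjusted p = 0.000992). Cyp12e1 and Cyp12b2 rose by 0.91 ± 0.19 and 0.88 ± 0.22. Cyp12c1 (0.40 ± 0.16, adjusted p = 0.0921) and Cyp12d1-p (-0.17 ± 0.35, adjusted p = 0.764) did not pass. All counts of Cyp12d1-p lay in its first exon entry.

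The 4 members that fell on sugar in wild type were Cyp28d1, Cyp4s3, Cyp6v1 and Cyp4ac1. Cyp28d1, linked to nicotine tolerance, had 40.7, 45.2 and 49.8 CPM on high sugar, against 140, 136 and 157 CPM on low sugar (-1.67 ± 0.14, adjusted p = 2.17e-05). Cyp4s3 had 42.8, 43.1 and 41.9 CPM on high sugar, against 67.5, 85.4 and 91 CPM on low sugar (-0.93 ± 0.14, adjusted p = 0.000898). Cyp6v1 had 8.65, 6.9 and 8.47 CPM on high sugar, against 14.6, 14 and 15.3 CPM on low sugar (-0.87 ± 0.16, adjusted p = 0.00232). Among the 4, Cyp4ac1 had the smallest fall, with 20.9, 26.6 and 32.4 CPM on high sugar and 54.8, 38.3 and 46.4 CPM on low sugar (-0.80 ± 0.18, adjusted p = 0.00722). In all 4 genes every high-sugar library lay below every low-sugar library.

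Of the 27 calls in wild type, 21 held without any 1 library and under the other settings run. Cyp6a2 lost its call without wild-type high-sugar library C (adjusted p = 0.051) and Cyp4p3 without low-sugar library B (0.0524). Cyp12b2 lost it without high-sugar C (0.054) or low-sugar C (0.0567), and Cyp6a13 without high-sugar B (0.0731) or low-sugar B (0.0664). Cyp317a1 and Cyp9b1 lost it without library B or C of either wild-type group, at adjusted p from 0.0845 to 0.137, and Cyp9b1 also without mutant high-sugar C (0.0515). With only the exon entry of highest mean in each gene, Cyp4p3 stood at 0.17 (adjusted p = 0.426), against 0.46 for the whole gene, Cyp12b2 at 0.57 (adjusted p = 0.185) and Cyp9b1 at 0.44 (adjusted p = 0.201), and none of the 3 passed. Cyp9b1 also did not pass with the wild-type libraries alone (adjusted p = 0.0761), without entries that overlap another gene (0.0622) or with a cuticle covariate (0.0666). Nor did it pass on leaving out together 3 libraries known from earlier results as low in cuticle genes (adjusted p = 0.0545). These were mutant low-sugar A, wild-type high-sugar C and wild-type low-sugar A. By the means given above they were not the 3 lowest, since mutant high-sugar A (3.97) was below wild-type low-sugar A (4.05).

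In mlx1 mutants, 30 members passed between the diets, of which 24 rose and 6 fell. Among all genes 29.3% passed, 13.5% higher and 15.7% lower, against 43.5% of the members. The median of the members was 0.40, against -0.01 for all genes. Of the CYP3 clan 13 members rose and 2 fell, and of the CYP4 clan 6 rose and 2 fell. The diet comparisons in the 2 genotypes share no library, but they share the estimate of the spread. In both, diet goes with the same hours and column tag. Of the members, 15 rose and 2 fell in both. The 18 members that passed in both, 1 of them in opposite directions, were 60% of those passing in mutants and 66.7% of those passing in wild type. The same overlap was not computed over all genes, so these shares have no background beside them.

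Cyp6w1, of the CYP3 clan, had a large rise in mutants. It had 288, 226 and 309.1 CPM in mutants on high sugar, against 26.2, 27.7 and 27.8 CPM in mutants on low sugar (3.33 ± 0.33, adjusted p = 5.06e-05). Cyp6a8, a gene induced by caffeine and barbiturates, had 149, 182 and 161 CPM on high sugar and 31.4, 31.1 and 25.3 CPM on low sugar (2.48 ± 0.36, adjusted p = 0.000604). Cyp4e3, which in tubules is known for tolerance to permethrin, had 424, 296 and 311.8 CPM on high sugar and 21.2, 55.7 and 48.7 CPM on low sugar (3.04 ± 0.71, adjusted p = 0.0124). In all 3 genes the diets were far apart in every mutant library.

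Cyp6a9, Cyp12a4, Cyp12e1, Cyp12a5 and Cyp9b1 rose in mutants as they did in wild type. Cyp6a9 had 35.9, 26 and 26.4 CPM on high sugar and 7.5, 7.25 and 8.21 CPM on low sugar (1.94 ± 0.16, adjusted p = 1.04e-05). Cyp12a4 had 219, 211 and 191 CPM on high sugar and 89.2, 78.3 and 89.7 CPM on low sugar (1.27 ± 0.16, adjusted p = 0.000137). Cyp12e1 had 61.2, 53.2 and 53.1 CPM on high sugar and 26.7, 18.4 and 24.3 CPM on low sugar (1.27 ± 0.19, adjusted p = 0.000378). Cyp12a5 and Cyp9b1 rose by 1.59 ± 0.25 and 1.41 ± 0.22, and no library of any of these genes overlapped between the diets in mutants. Among the 24 risers 9 did not pass in wild type, namely Cyp6a8, Cyp304a1, Cyp6d5, Cyp6a22, Cyp6g2, Cyp4e2, Cyp4g1, Cyp4p1 and Cyp4e3. Cyp304a1, of the CYP2 clan, rose in mutants to 6.51, 9.42 and 9.14 CPM on high sugar, against 2.53, 3.37 and 2.57 CPM on low sugar (1.56 ± 0.24, adjusted p = 0.000493), and stood at 0.26 ± 0.26 in wild type (adjusted p = 0.493). Cyp6d5, known for a part in caffeine breakdown, had 222, 270 and 222 CPM on high sugar and 139, 115 and 143 CPM on low sugar (0.85 ± 0.19, adjusted p = 0.00554). In wild type Cyp6d5 stood at 0.39 ± 0.19 (adjusted p = 0.157), and its interaction did not pass (0.46 ± 0.27, adjusted p = 0.323).

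The 6 members that fell in mutants were Cyp28d2, Cyp4s3, Cyp6v1, Cyp4g15, Cyp305a1 and the cyclophilin Cyp1. Cyp4s3 had 41.4, 54.4 and 51.3 CPM on high sugar and 81.6, 100 and 78.1 CPM on low sugar (-0.82 ± 0.14, adjusted p = 0.00106). Cyp4g15, the nervous-system relative of Cyp4g1, had 10.1, 12.3 and 10.9 CPM on high sugar and 16.3, 16.1 and 16.7 CPM on low sugar (-0.56 ± 0.15, adjusted p = 0.0138). Cyp6v1 had 12.5, 13.9 and 10.8 CPM on high sugar and 22.1, 18.5 and 15.9 CPM on low sugar (-0.60 ± 0.15, adjusted p = 0.0109). These 3 genes were lower in every high-sugar library. Cyp1 had 926, 967 and 959 CPM on high sugar and 1492, 1106 and 1251 CPM on low sugar (-0.43 ± 0.13, adjusted p = 0.0247). Cyp305a1 also fell (-0.75 ± 0.23, adjusted p = 0.0283), with libraries of the diets overlapping.

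Of these 30 calls, 18 held without any 1 library and under the other settings. The call was lost without 1 library for Cyp6a2 (mutant high-sugar B, adjusted p = 0.103), Cyp4p1 (high-sugar B, 0.0519), Cyp4g15 (high-sugar A, 0.0618) and Cyp6v1 (high-sugar C, 0.0502). It was lost without either of 2 mutant libraries for Cyp6a14 (high-sugar A, 0.094, and low-sugar B, 0.0607) and Cyp4e2 (high-sugar B, 0.0618, and low-sugar C, 0.0502). It was lost without any of 4 mutant libraries for Cyp1 and Cyp305a1 (A and C of either diet, adjusted p up to 0.0893 and 0.116), and for Cyp311a1 and Cyp9f2 (high-sugar A and B, low-sugar B and C, up to 0.0621 and 0.068). Cyp309a1 and Cyp6g2 lost it without any of 8 and 7 libraries, wild-type ones included, at adjusted p up to 0.142 and 0.148. Cyp6a2 (adjusted p = 0.0661), Cyp305a1 (0.0679) and Cyp6g2 (0.098) also did not pass with the mutant libraries alone, nor Cyp309a1 (0.0832) and Cyp6g2 (0.0704) without a filter on low counts. With only the exon entry of highest mean Cyp309a1 (0.0532) and Cyp6g2 (0.108) were lost, and without overlapping entries Cyp1 (0.0564) and Cyp6g2 (0.111). Cyp305a1 did not pass without those 3 low-cuticle libraries (0.126).

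**Figure D2:**
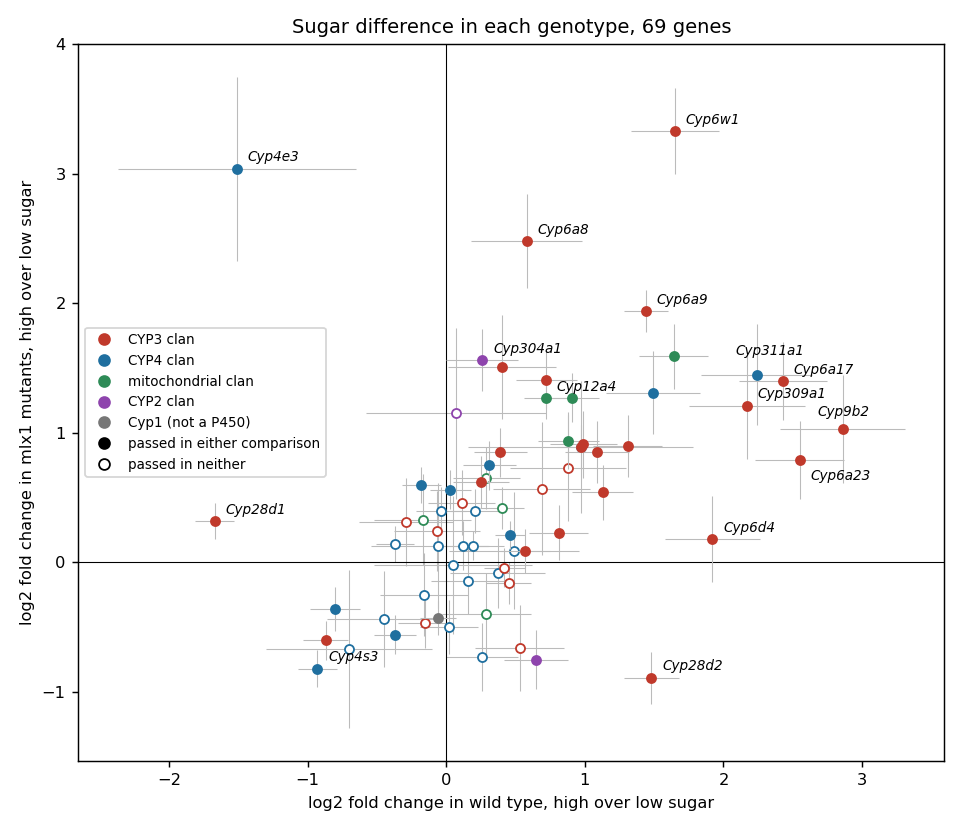
Log2 fold change of high over low sugar in mlx1 mutants (vertical) against that in wild type (horizontal) for the 69 members, coloured by clan, with standard errors from the edgeR fit. Filled points passed in at least 1 genotype. Cyp6w1 and Cyp6a9 lie high in both, Cyp28d1 lies left with 0.32 in mutants and -1.67 in wild type, and Cyp28d2 lies below 0 in mutants and above 0 in wild type.

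Between the genotypes on high sugar, 21 members passed, of which 11 were higher and 10 lower in mutants. Among all genes 13.9% passed, 6.8% higher and 7.06% lower, against 30.4% of the members. Of the 21, 15 differed by at least 2-fold, a share that was not computed over all genes and so has no background beside it. The median over the members was 0.09, against 0.00 for all genes, so the members did not lean one way. Of the CYP3 clan 4 members were higher and 7 lower, and of the CYP4 clan 5 were higher and 2 lower.

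Cyp4e3 differed most. It had 424, 296 and 311.8 CPM in mutants on high sugar, against 1.91, 1.75 and 1.38 CPM in wild type on high sugar (7.67 ± 0.93, adjusted p = 0.000802), a fitted difference of 204-fold. On low sugar it had 21.2, 55.7 and 48.7 CPM in mutants, against 11.5, 1.89 and 1.07 CPM in wild type, and the difference did not pass (3.13 ± 0.75, adjusted p = 0.0632). Library A of wild type on low sugar stood above the other wild-type libraries. All 6 exon entries of Cyp4e3 showed the difference on high sugar. The first entry, for example, held 1486, 1165 and 1094 counts in mutants and 7, 3 and 3 counts in wild type.

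Cyp6a8 was higher in mutants on both diets. It had 149, 182 and 161 CPM in mutants and 3.71, 3.5 and 11.2 CPM in wild type on high sugar (4.72 ± 0.41, adjusted p = 4.57e-05). On low sugar it had 31.4, 31.1 and 25.3 CPM in mutants and 3.38, 4.17 and 4.86 CPM in wild type (2.82 ± 0.39, adjusted p = 0.00343). No mutant library overlapped a wild-type one. Cyp6w1 had 288, 226 and 309.1 CPM in mutants on high sugar, against 57.7, 42.1 and 57.5 CPM in wild type on high sugar (2.39 ± 0.32, adjusted p = 0.000673). On low sugar its libraries overlapped between genotypes, with 26.2, 27.7 and 27.8 CPM in mutants and 27.7, 10.9 and 11.6 CPM in wild type (0.71 ± 0.31, adjusted p = 0.263).

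Further members higher in mutants on high sugar were Cyp28d1, Cyp304a1 and Cyp313b1. Cyp28d1 had 115, 123 and 119 CPM in mutants and 40.7, 45.2 and 49.8 CPM in wild type (1.39 ± 0.14, adjusted p = 4.82e-05). Cyp304a1 had 6.51, 9.42 and 9.14 CPM in mutants and 2.02, 2.58 and 3.59 CPM in wild type (1.60 ± 0.24, adjusted p = 0.000962). Cyp313b1 had 8.35, 8.6 and 10.5 CPM in mutants and 4.61, 5.67 and 4.24 CPM in wild type (0.92 ± 0.18, adjusted p = 0.00503). All 3 genes were above every wild-type library in all 3 mutant libraries. Cyp12a4, Cyp6v1, Cyp4ac1, Cyp4ae1 and Cyp4d8 also passed, at log2 0.65, 0.63, 0.61, 1.13 and 2.02, and each lost the call when 1 library was left out.

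Cyp6a2, an enzyme known to metabolise DDT, and Cyp4p2 were much lower in mutants on both diets. Cyp6a2 had 13.8, 16.7 and 14.4 CPM in mutants and 165, 198 and 243 CPM in wild type on high sugar (-3.75 ± 0.27, adjusted p = 5.36e-06). On low sugar it had 4.4, 9.5 and 10.2 CPM in mutants and 97, 111 and 97.3 CPM in wild type (-3.67 ± 0.27, adjusted p = 3.33e-05). Both of its exon entries showed this, with 146 counts in mutants and 2044 in wild type over entry 1 on high sugar, and 295 and 3989 over entry 2. Cyp4p2 had 31.9, 28.8 and 26.4 CPM in mutants and 170, 201 and 171 CPM in wild type on high sugar (-2.64 ± 0.12, adjusted p = 7.11e-08). Low-sugar Cyp4p2 levels were 26.3, 26 and 27.5 CPM in mutants and 149, 147 and 179 CPM in wild type (-2.57 ± 0.12, adjusted p = 2.13e-07). The genotype differences of Cyp4p2 on the 2 diets were within 1 SE of each other.

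The gap of Cyp6a14 was likewise seen on both diets, at 19.7, 11.5 and 14 CPM in mutants and 35.9, 40.7 and 54.7 CPM in wild type on high sugar (-1.54 ± 0.23, adjusted p = 0.000969). Low-sugar Cyp6a14 levels were 8.8, 6.65 and 9.59 CPM in mutants and 25.2, 17 and 19.6 CPM in wild type (-1.30 ± 0.24, adjusted p = 0.00997). Cyp6d2 was low throughout, with 0.651, 0.274 and 0.551 CPM in mutants and 2.02, 3.71 and 1.84 CPM in wild type on high sugar (-2.35 ± 0.41, adjusted p = 0.00245). Within each diet, neither Cyp6a14 nor Cyp6d2 had a mutant library within the wild-type range. On low sugar Cyp6d2 had 0.407, 0.345 and 0.198 CPM in mutants and 1.85, 1.29 and 1.55 CPM in wild type (-2.24 ± 0.44, adjusted p = 0.0147). Cyp4p1, next to Cyp4p2, was lower in mutants by log2 0.85 on high sugar (-0.85 ± 0.19, adjusted p = 0.0101), and it too did not overlap.

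Cyp28d2, Cyp6a23 and Cyp9b2 were lower in mutants on high sugar and did not pass on low sugar in the fit of all 12 libraries. In a fit of the low-sugar libraries alone with the library letter as a block, Cyp6a23 was lower in mutants (-0.76 ± 0.08, adjusted p = 0.00318) and Cyp28d2 was higher (0.33 ± 0.08, adjusted p = 0.0481). Cyp28d2 had 56.1, 49.7 and 40.2 CPM in mutants and 156, 196 and 241 CPM in wild type on high sugar (-2.02 ± 0.20, adjusted p = 4.33e-05). Cyp6a23 had 102, 105 and 77.9 CPM in mutants and 296, 684 and 634 CPM in wild type (-2.50 ± 0.32, adjusted p = 0.000494). Cyp9b2 had 143, 195 and 113 CPM in mutants and 336, 857 and 817 CPM in wild type (-2.16 ± 0.44, adjusted p = 0.00997). The mutant libraries lay below the wild-type ones in all 3 genes. Cyp305a1 and Cyp6a21 were lower as well (log2 -1.0 ± 0.23 and -0.65 ± 0.16).

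Of the 21 calls, 14 held without any 1 library and under the other settings. On leaving out 1 library, Cyp12a4 lost its call without mutant high-sugar A (adjusted p = 0.0763) or B (0.0631) or wild-type high-sugar B (0.0619). Cyp6v1 lost it without the same 3 libraries (up to 0.0845), Cyp305a1 without mutant high-sugar A or C or wild-type high-sugar B (up to 0.0674), and Cyp6a21 without mutant high-sugar C or wild-type high-sugar B or C (up to 0.0871). Cyp4ae1 lost it without any of the 6 high-sugar libraries (up to 0.133). Cyp4ac1 lost it without any high-sugar library except wild-type C, or without low-sugar library C of either genotype (up to 0.139). Cyp4d8 lost it without any high-sugar library or low-sugar library C of either genotype (up to 0.157). Cyp4ae1 also did not pass by DESeq2 (adjusted p = 0.151) or without a filter on low counts (0.0557), and without those 3 low-cuticle libraries neither Cyp4ae1 (0.0761) nor Cyp6a21 (0.0686) passed.

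**Figure D3:**
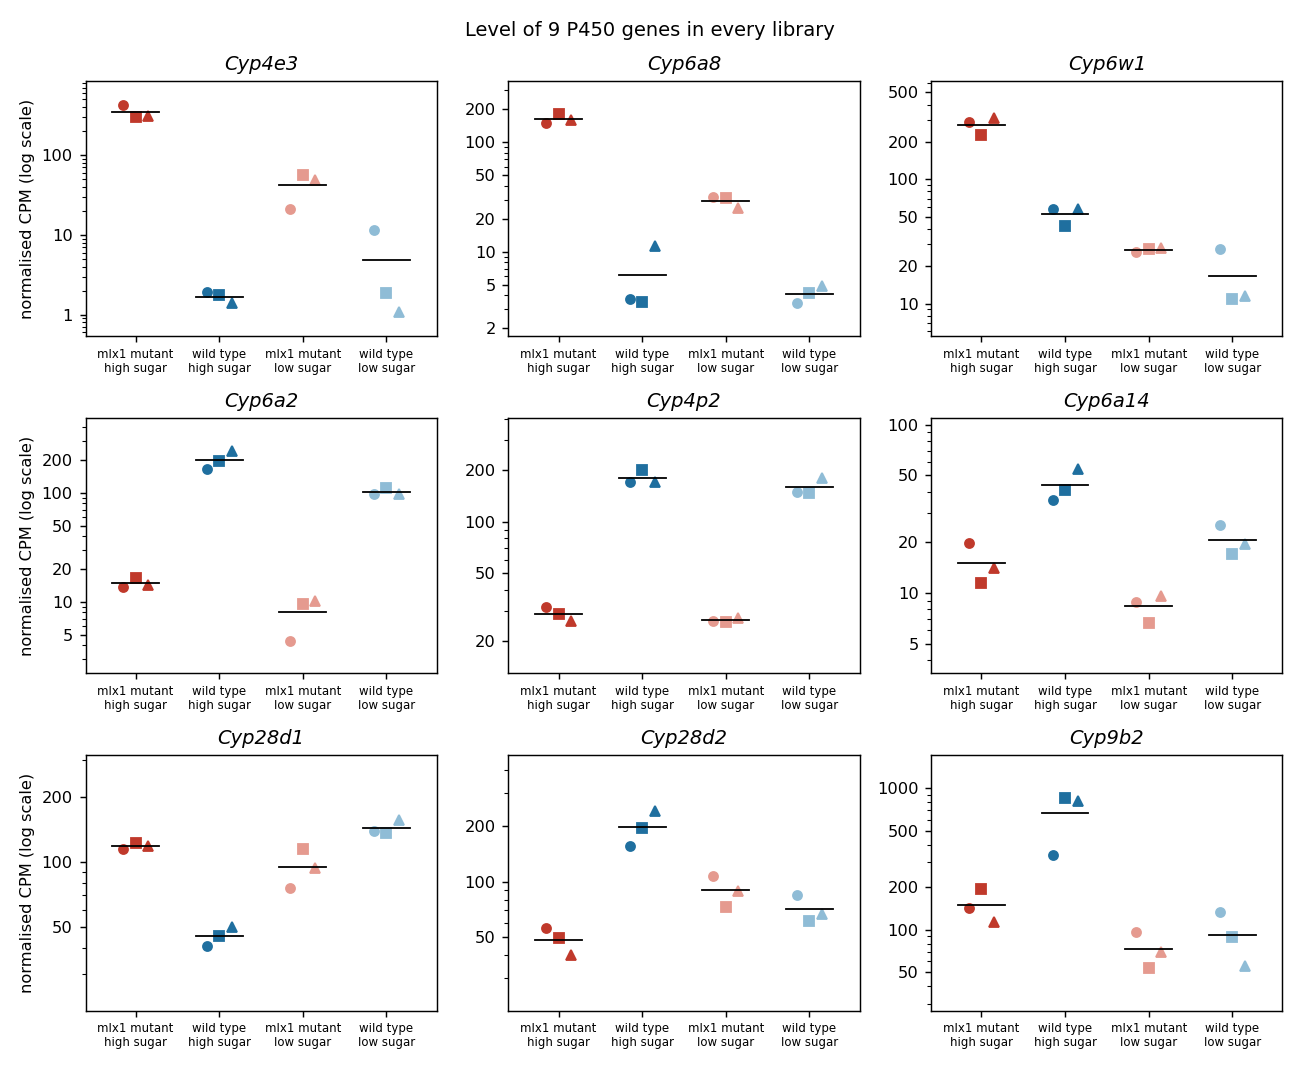
Level of 9 members (TMM-normalised CPM, log axis) in each library (circle A, square B, triangle C), with a line at the mean of each group. Cyp4e3, Cyp6a8 and Cyp6w1 are high in mutants on high sugar, Cyp6a2, Cyp4p2 and Cyp6a14 are low in mutants on both diets, and Cyp28d1 and Cyp28d2 run in opposite directions.

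Between the genotypes on low sugar, 11 members passed, of which 4 were higher and 7 lower in mutants. Among all genes 3.59% passed, 1.82% higher and 1.77% lower, against 15.9% of the members. The median was 0.09, against 0.01 for all genes. The genotype comparisons on the 2 diets share no library, but they share the estimate of the spread and the same 2 lines. The 8 members that passed on both were 38.1% of the high-sugar calls and 72.7% of the low-sugar calls. This overlap too was not computed over all genes. Of these 8, Cyp6a8 and Cyp4ae1 were higher on both, Cyp6a2, Cyp4p1, Cyp4p2, Cyp6a14 and Cyp6d2 were lower on both, and Cyp28d1 was in opposite directions. Cyp4p1 had 15.7, 29.3 and 19.7 CPM in mutants, against 49.7, 46.6 and 61.8 CPM in wild type, on low sugar (-1.29 ± 0.19, adjusted p = 0.00287). Cyp28d1 had 75.9, 115 and 94 CPM in mutants, against 140, 136 and 157 CPM in wild type, on low sugar (-0.60 ± 0.14, adjusted p = 0.0336).

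Of the members higher in mutants on low sugar, Cyp6a17 had 27.6, 24.2 and 29.7 CPM in mutants and 10, 7.35 and 5.92 CPM in wild type (1.80 ± 0.32, adjusted p = 0.0111). Cyp6a18 had 25.4, 30.1 and 22.2 CPM in mutants and 14, 13.6 and 15.9 CPM in wild type (0.84 ± 0.20, adjusted p = 0.0381). Both were higher in every mutant library. The Cyp6a17 values cover different exon entries in mutants and wild type, as given below. Cyp4ae1 had 1.22, 1.73 and 1.58 CPM in mutants and 0.615, 0.397 and 0.486 CPM in wild type (1.57 ± 0.31, adjusted p = 0.0147). Every exon entry of Cyp4ae1 overlaps an entry of another gene, and whether the counting used strand is not given, so its reads cannot be told apart from that gene's. Cyp6a17, Cyp6a18 and Cyp4d14 passed on low sugar and not on high sugar, a difference that did not pass the interaction test for any of the 3.

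The low-sugar calls depended on the fit. Libraries with the same letter deviated together on low sugar, and with the letter as a block, in a fit of the low-sugar libraries alone, 17 members passed, 7 higher and 10 lower, where 8.81% of all genes did. Cyp4p1 and Cyp4ae1 were lost in that fit, the other 9 were kept, and the 8 added were Cyp6a23 and Cyp28d2 with the values above, Cyp6a20, Cyp6d4, Cyp313b1, Cyp317a1 (0.64 ± 0.10, adjusted p = 0.0134), Cyp4g1 (-0.52 ± 0.10, adjusted p = 0.0236) and Cyp18a1 (-0.95 ± 0.19, adjusted p = 0.0332). Without the block, the count fell to 6 of 11 when mutant low-sugar library C or wild-type low-sugar library B was left out, and to 7 when wild-type low-sugar library C was. Cyp6a2, Cyp4p2, Cyp6a8, Cyp6a14 and Cyp4p1 held without any 1 library. Cyp6d2 lost its call without mutant low-sugar C (adjusted p = 0.0654), Cyp6a17 without wild-type low-sugar B (0.0611), and Cyp4ae1 without mutant low-sugar C (0.0519) or wild-type low-sugar B (0.0798) or C (0.0512). Cyp28d1 lost it without any of 9 libraries, Cyp6a18 without any of 9 and Cyp4d14 without any of 11, at adjusted p up to 0.11, 0.155 and 0.201. With the low-sugar libraries alone and no block, Cyp4p1 (adjusted p = 0.0938), Cyp28d1 (0.226), Cyp4ae1 (0.11), Cyp4d14 (0.251) and Cyp6a18 (0.0801) did not pass. Cyp4d14 also did not pass without overlapping entries (adjusted p = 0.238). Without those 3 low-cuticle libraries Cyp28d1 (adjusted p = 0.0621), Cyp6a17 (0.0861), Cyp6a18 (0.0634) and Cyp6d2 (0.063) did not pass.

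**Figure D4:**
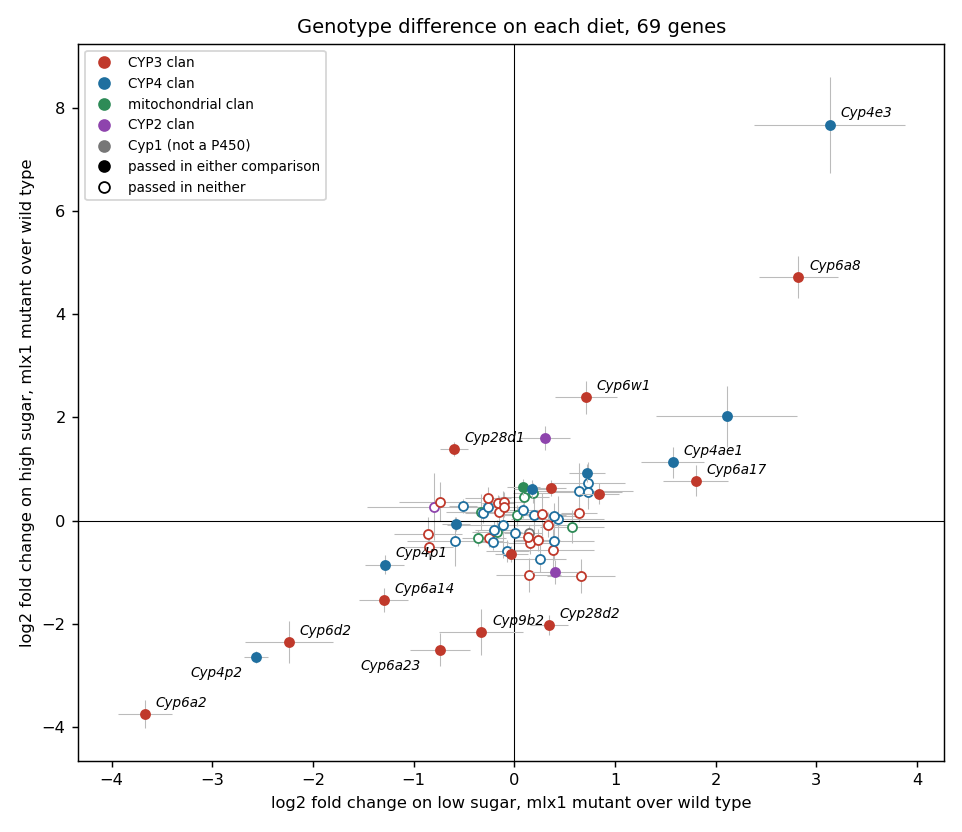
Log2 fold change of mlx1 mutant over wild type on high sugar (vertical) against that on low sugar (horizontal) for the 69 members, coloured by clan, with standard errors from the edgeR fit. Filled points passed on at least 1 diet. Cyp6a2, Cyp4p2 and Cyp6d2 lie at the lower left, Cyp6a8 and Cyp4e3 at the upper right, and Cyp6w1, Cyp28d2, Cyp6a23 and Cyp9b2 have high-sugar values of 2.39, -2.02, -2.50 and -2.16 with smaller values on low sugar.

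The sugar response itself differed between genotypes in 8 members by the interaction, 5 with a higher and 3 with a lower value in mutants. Among all genes 6.89% passed, 3.32% higher and 3.57% lower, against 11.6% of the members. The clearest pair was Cyp28d1 and Cyp28d2, neighbours on chromosome arm 2L with 6 exon entries each (Cyp28d2 from 5207267 to 5209345 and Cyp28d1 from 5210460 to 5212445 in the table's positions, whose build is not given). Cyp28d1 had 115, 123 and 119 CPM in mutants on high sugar and 75.9, 115 and 94 CPM in mutants on low sugar (0.32 on the log2 scale, not passing), while it fell in wild type as given above. Its interaction was 2.0 ± 0.20 (adjusted p = 0.00032). Cyp28d2 did the reverse. It had 56.1, 49.7 and 40.2 CPM in mutants on high sugar and 107, 73.2 and 89.3 CPM in mutants on low sugar, a fall of 0.89 on the log2 scale (adjusted p = 0.00521). In wild type it had 156, 196 and 241 CPM on high sugar and 84.3, 61.5 and 67.2 CPM on low sugar, a rise of 1.48 ± 0.20 (adjusted p = 0.000413). Its interaction was -2.36 ± 0.28 (adjusted p = 0.000933).

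All 6 entries of each gene followed its gene. In entry 4, the longest of both, Cyp28d1 held 1531 counts in mutants and 593 in wild type on high sugar, while Cyp28d2 held 455 in mutants and 2272 in wild type. On low sugar entry 4 held 1459 and 1850 counts in Cyp28d1 and 1120 and 720 counts in Cyp28d2, mutants before wild type. These 2 interactions held without any 1 library and under every other setting run.

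The other 6 interactions were less firm. Cyp4e3 (4.55 ± 1.10, adjusted p = 0.0453), Cyp6w1 (1.68 ± 0.44, adjusted p = 0.047), Cyp304a1 (1.30 ± 0.35, adjusted p = 0.0476) and Cyp4g1 (0.79 ± 0.20, adjusted p = 0.0361) had a higher sugar response in mutants. Cyp6a23 (-1.76 ± 0.43, adjusted p = 0.0385) and Cyp305a1 (-1.40 ± 0.33, adjusted p = 0.0277) had a lower one. Cyp4g1 had 541, 426 and 610 CPM in mutants on high sugar and 328, 387 and 323 CPM in mutants on low sugar, against 488, 384 and 426 CPM and 477, 488 and 512 CPM in wild type on the same diets. It rose in mutants (0.60 ± 0.14, adjusted p = 0.00656), and in wild type its libraries overlapped. Cyp305a1 had 9.76, 15 and 11 CPM in mutants on high sugar and 23.2, 13.6 and 23.5 CPM in mutants on low sugar, against 18.8, 28.1 and 25 CPM and 16.9, 14.3 and 14.7 CPM in wild type. Cyp6a8 (1.90 ± 0.53, adjusted p = 0.0601), Cyp6d4 (-1.74 ± 0.47, adjusted p = 0.0525) and Cyp9b2 (-1.83 ± 0.60, adjusted p = 0.1) did not pass.

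Leaving out 1 library moved the count of interactions from 8 to 2 without mutant high-sugar A or C, wild-type high-sugar B, or mutant low-sugar A or C. It was 3 without wild-type low-sugar B, 4 without mutant high-sugar B or wild-type low-sugar C, and 5 without wild-type high-sugar C. Each of the 6 less firm interactions was lost without any of 8 to 10 libraries, at adjusted p up to 0.12. Without a filter on low counts Cyp4e3 (adjusted p = 0.0627), Cyp6w1 (0.0632) and Cyp304a1 (0.065) did not pass, and Cyp304a1 also not without overlapping entries (0.0506). Cyp6a23 did not pass with only its exon entry of highest mean (0.0514). Without those 3 low-cuticle libraries Cyp304a1 (0.0561), Cyp305a1 (0.0994), Cyp4g1 (0.0945) and Cyp6a23 (0.155) were lost.

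Cyp6a17 and Cyp6a23 are adjacent on chromosome arm 2R, and deletions or fusions of this pair are known from some fly strains. Cyp6a17 itself is known for a role in temperature preference. The table lists 2 exon entries for each. Over entry 2 of Cyp6a17 (10762629 to 10763063, 435 bases) mutants had 203, 228 and 203 counts on high sugar and 90, 88 and 81 counts on low sugar, while wild type had 0, 1 and 0 counts on high sugar and 2, 0 and 0 counts on low sugar. Over entry 1 (10761458 to 10762568, 1111 bases) mutants had 538, 490 and 419 counts on high sugar and 249, 192 and 219 counts on low sugar. Wild type had 192, 553 and 513 counts on high sugar and 96, 74 and 61 counts on low sugar over entry 1. The wild-type line thus had reads over the first entry and next to none over the second, in all 6 libraries.

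No other such break was found among the entries compared. None could be seen in Cyp4g1, Cyp317a1 and Cyp6a13, which have 1 entry, or in Cyp12d1-p, with counts in 1 entry only. Members with no entry of at least 60 counts were not compared. There were 241 member entries with at least 60 counts over the 12 libraries, in 66 genes. Of these, only entry 2 of Cyp6a17 departed from its gene's own log2 ratio of mutant to wild type by more than 2. The values of Cyp6a17 given as a gene are therefore sums over different parts in the 2 lines. With entry 1 alone, the low-sugar genotype difference of Cyp6a17 was 1.36 (adjusted p = 0.0501), against 1.80 ± 0.32 (adjusted p = 0.0111) for the whole gene. The sugar rise of entry 1 passed in both genotypes, at 1.34 in mutants (adjusted p = 0.00908) and 2.47 in wild type (adjusted p = 0.000636). Cyp6a23 is similar in sequence to Cyp6a17, and reads shared by the pair could be counted to either. In wild type, entry 1 of Cyp6a23 had 1921, 5077 and 5022 counts on high sugar and 805, 529 and 710 counts on low sugar. As over entry 1 of Cyp6a17, library A was the lowest on high sugar. Whether the wild-type reads over entry 1 of Cyp6a17 come from Cyp6a23 was not tested. Per kilobase, entry 1 of Cyp6a23 had 67.3, 67.5 and 48.4 CPM in mutants and 193, 467 and 413 CPM in wild type on high sugar. Entry 2 of Cyp6a23 had 41.6, 46.4 and 36.9 CPM per kb in mutants and 124, 251 and 268 CPM per kb in wild type on high sugar, so both of its entries were lower in mutants. Entry 2 of Cyp4p2 was the next most uneven, at -1.24 between the genotypes, against -2.60 for the whole gene.

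**Figure D5:**
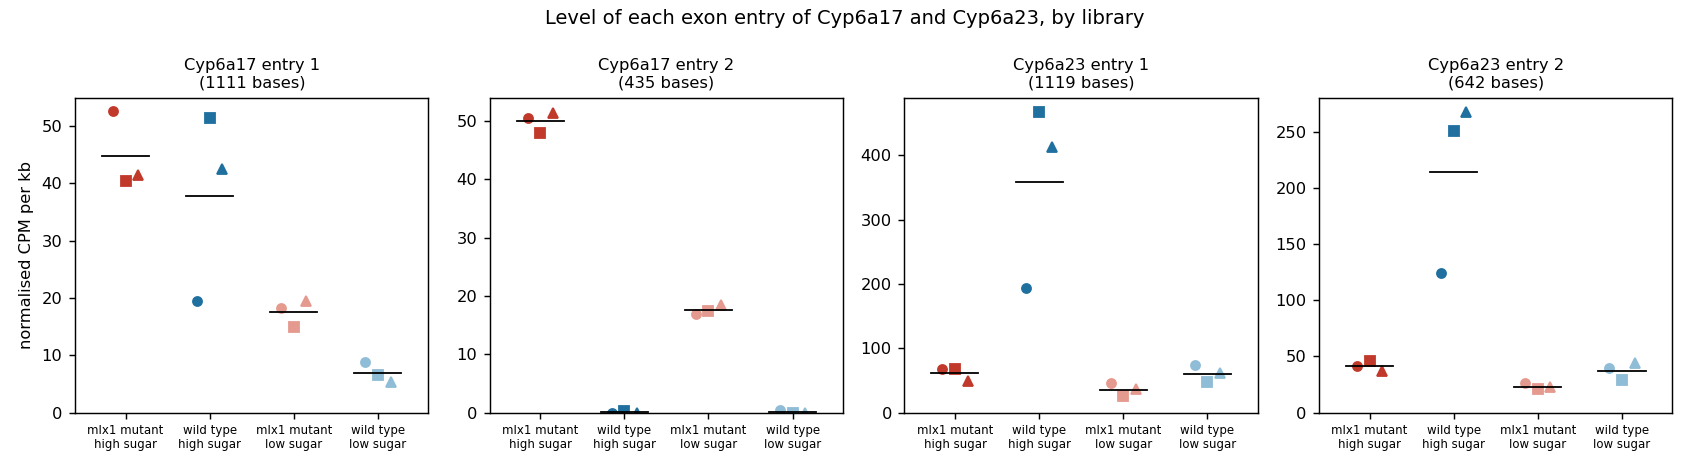
Level of each exon entry of Cyp6a17 and Cyp6a23 (TMM-normalised CPM per kb, linear axes of different range), with 1 point per library and a line at the mean of each group. Entry 2 of Cyp6a17 stands at 47.9 to 51.4 CPM per kb in mutants on high sugar and at 0 to 0.471 CPM per kb in wild type on both diets.

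P450 genes often stand in rows of neighbours, and 39 of the members lay in 17 clusters with gaps of at most 20 kb. Names left out by the minimum were counted as neighbours, so some clusters hold only 1 member. A cluster with only 1 call cannot hold both directions. Between diets in mutants 12 clusters held a call and 0 held both directions. Only that of Cyp12a4 and Cyp12a5 (2 calls) and that of Cyp6a8 (4 calls) had more than 1 call there. On high sugar, 9 clusters held a member that differed between genotypes and 2 held calls in both directions, the Cyp28d pair and the cluster on 2R with Cyp6a8 (higher in mutants) and Cyp6a23 and Cyp6a21 (lower). In the 3-gene Cyp4p cluster, Cyp4p2 and Cyp4p1 were lower in mutants on high sugar, while Cyp4p3 had 68.1, 69.6 and 71.6 CPM in mutants and 85.6, 74.3 and 88 CPM in wild type and did not pass. Between diets in wild type, 10 clusters held a call and 2 held both directions, the Cyp28d pair and the Cyp4ac cluster, where Cyp4ac3 rose by 1.49 ± 0.34 and Cyp4ac1 fell. Between genotypes on low sugar 5 clusters held a call and 1 held both directions, that of Cyp4ae1 (higher in mutants) and Cyp4d14 (lower).

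Several members known for other roles did not pass in any comparison by the fit of all 12 libraries, as was the case for 22 of the 69. Cyp18a1, which inactivates the moulting hormone 20-hydroxyecdysone, had 46.2, 24.8 and 35.5 CPM in mutants and 32.4, 24 and 31.6 CPM in wild type on high sugar. On low sugar it had 5.38, 32.3 and 10.4 CPM in mutants, against 15.6, 49.6 and 18.6 CPM in wild type. On low sugar library B was the highest in both genotypes and library A the lowest, which is also the order of the cuticle genes given above. Cyp4c3, with 24.5, 88.5 and 35.4 CPM in mutants and 39.6, 108 and 75.6 CPM in wild type on low sugar, and Cyp6a20, known for male aggression, with 8.23, 25 and 16.9 CPM and 22, 37.4 and 31.8 CPM, had the same order of libraries. The part of the moult in these values was not tested. Cyp6g1, known for DDT and imidacloprid resistance, had 25.2, 20.7 and 10.7 CPM in mutants and 10.2, 17.5 and 24 CPM in wild type on high sugar (0.12 ± 0.41, adjusted p = 0.896), and the spread within groups was as large as any difference. Cyp12d1-p, known for DDT resistance, had 2.49, 2.1 and 2.42 CPM in mutants and 1.12, 2.58 and 2.49 CPM in wild type on high sugar. All 263 counts of Cyp12d1-p lay in exon entry 1, and entries 2, 3 and 4 had 0 counts, so its values cover part of the gene. Whether reads shared with the near copy Cyp12d1-d are missing there was not tested. The other members that did not pass were Cyp12c1, Cyp301a1, Cyp310a1, Cyp313a3, Cyp313a4, Cyp318a1, Cyp49a1, Cyp4aa1, Cyp4ac2, Cyp4ad1, Cyp4d1, Cyp4d20, Cyp4d21, Cyp4e1, Cyp6a16Psi, Cyp6u1 and Cyp9h1.

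Of 6 P450 genes named otherwise, those of moulting hormone synthesis, phm, sad, shd and spok had enough counts to test. None passed between genotypes. Shd, which makes the active hormone in peripheral tissue, rose on sugar in mutants (49.8 ± 6.34 CPM on high sugar and 32 ± 5.44 CPM on low sugar, SD, n = 3 each; 0.64 ± 0.16, adjusted p = 0.0112). Sad, which acts in the prothoracic gland, fell in mutants (2.07 ± 0.671 CPM on high sugar and 4.19 ± 1.33 CPM on low sugar; -1.01 ± 0.31, adjusted p = 0.0269).

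Among 8 genes of electron supply, 1 was higher and 3 were lower in mutants on high sugar, and 4 rose and 1 fell on sugar in wild type. These are 50% and 62.5% of the list, against 13.9% and 23.1% of all genes. Cpr, the reductase that serves the P450s of the endoplasmic reticulum, had 282 ± 24.8 CPM in mutants and 408 ± 93.1 CPM in wild type on high sugar (SD, n = 3 each; -0.53 ± 0.14, adjusted p = 0.029). It rose on sugar in wild type (0.58 ± 0.14, adjusted p = 0.0141), stood at 0.05 ± 0.14 in mutants, and its interaction did not pass (-0.52 ± 0.20, adjusted p = 0.143). Cyt-b5 ran the same way, at -0.39 ± 0.12 between genotypes on high sugar (adjusted p = 0.0451) and 0.52 ± 0.12 between diets in wild type (adjusted p = 0.00787). Zw, which makes NADPH, was lower in mutants on high sugar (-3.28 ± 0.16, adjusted p = 8.11e-08) and on low sugar (-0.82 ± 0.15, adjusted p = 0.00838), and its interaction passed (-2.46 ± 0.21, adjusted p = 0.000117). Idh, another source of NADPH, was higher in mutants on high sugar (1.29 ± 0.23, adjusted p = 0.00331) and on low sugar (1.23 ± 0.24, adjusted p = 0.0137). Men, also in this list, had 2032 ± 46.2 CPM in mutants and 2296 ± 101 CPM in wild type on high sugar. It did not pass between genotypes on high sugar (-0.18 ± 0.13, adjusted p = 0.445) or low sugar (-0.24 ± 0.13, adjusted p = 0.361). Men rose on sugar by 1.76 ± 0.13 in mutants and 1.70 ± 0.13 in wild type. Fdxh, a ferredoxin of the mitochondrial clan, fell on sugar in both genotypes (-0.72 ± 0.21 in mutants and -0.69 ± 0.21 in wild type), while 4 of 6 members of family 12 rose. Another ferredoxin gene, CG1319, stood at -0.05 ± 0.09 between diets in mutants and -0.03 ± 0.09 in wild type. The reductase gene dare stood at -0.28 ± 0.15 and -0.12 ± 0.15. Neither CG1319 nor dare passed between diets. Of 6 heme genes tested, 1 rose and 1 fell on sugar in mutants, and 1 rose and 0 fell in wild type. These are 33.3% and 16.7% of the list, near or below the 29.3% and 23.1% of all genes. Alas, the first enzyme of heme synthesis, rose in both genotypes (0.73 ± 0.11 in mutants and 0.72 ± 0.11 in wild type). The heme synthesis gene that fell on sugar in mutants (-0.48 ± 0.13, adjusted p = 0.0152) was also lower in mutants on high sugar (-0.66 ± 0.13, adjusted p = 0.00544) and passed the interaction (-0.78 ± 0.18, adjusted p = 0.0289).

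Of 6 regulators of detoxification genes, Hr96, a nuclear receptor for xenobiotics and lipids, was lower in mutants on high sugar (-0.62 ± 0.13, adjusted p = 0.00825). It rose on sugar in wild type (0.67 ± 0.13, adjusted p = 0.00386), and its interaction passed (-0.79, adjusted p = 0.0295). The transcription factor cnc rose on sugar in both genotypes, by 0.31 ± 0.10 in mutants and 0.38 ± 0.10 in wild type. The low gene ss rose in mutants (1.12 ± 0.34, adjusted p = 0.0255), and Keap1, maf-S and tgo passed in no comparison. Between genotypes on high sugar 16.7% of this list passed, against 13.9% of all genes. Between diets 33.3% passed in each genotype, against 29.3% in mutants and 23.1% in wild type. By the interaction 16.7% passed, against 6.89%. The later steps of detoxification can be set beside the P450s. Of 24 glutathione transferase genes tested, 13 rose and 3 fell on sugar in wild type, 8 rose and 2 fell in mutants, and 3 were higher and 9 lower in mutants on high sugar. These calls are 66.7%, 41.7% and 50% of the list, against 23.1%, 29.3% and 13.9% of all genes in the same comparisons. Of 15 UDP-glycosyltransferase genes, 9 rose and 0 fell on sugar in wild type, 2 rose and 1 fell in mutants, and 0 were higher and 4 lower in mutants on high sugar. These are 60%, 20% and 26.7% of the list, so the share in mutants was below that of all genes. By the interaction 1 of them passed, with a lower value in mutants.

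Markers of tissues that hold P450s can be set beside these results. Of 12 midgut genes, 1 was higher and 6 were lower in mutants on high sugar, and 7 rose and 0 fell on sugar in wild type, each 58.3% of the list, against 13.9% and 23.1% of all genes. Their summed level on high sugar was 5068 to 6044 CPM in mutants and 6401 to 8271 CPM in wild type, and on low sugar 4646 to 5299 CPM in mutants and 4813 to 5985 CPM in wild type, with none at 0. Of 7 Malpighian tubule genes, 1 was higher in mutants on high sugar (14.3%, near the 13.9% of all genes) and 2 on low sugar (28.6%, against 3.59%), and their summed level was 788 to 954 CPM in mutants and 294 to 340 CPM in wild type on high sugar. Uro carried this, with 605 ± 78.4 CPM in mutants and 100 ± 13.6 CPM in wild type on high sugar (SD, n = 3 each), while Irk3 had 16.8 and 24 CPM and none of the 7 was at 0. Of 3 oenocyte genes 0 passed between genotypes on high sugar, with summed levels of 270 to 349 CPM in mutants and 289 to 342 CPM in wild type. Of the 3, only v(2)k05816 passed elsewhere. It was lower in mutants on low sugar (-0.72 ± 0.15, adjusted p = 0.0245). It rose on sugar by 1.21 ± 0.15 in mutants and 0.78 ± 0.15 in wild type. Each time this is 33.3% of the list, against 3.59%, 29.3% and 23.1% of all genes in that order. Of the 2 fat body genes tested, Rfabg was lower in mutants on high sugar, at 3439 ± 647 CPM in mutants and 8796 ± 2130 CPM in wild type. Of 104 cuticle genes, 1 rose and 24 fell on sugar in wild type, with a median of -1.31, and 5 were higher and 1 lower in mutants on high sugar. These calls are 24% and 5.77% of the list, against 23.1% and 13.9% of all genes. The part of these tissues in the P450 values was not tested.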

How the data were processed

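Poly(A) RNA of whole larvae was sequenced, and the authors deposited counts of reads per exon entry, without normalisation. Per the submitters' processing notes, BWA 0.5.9, SAMtools and HTSeq 0.6.1 were used; for genome build, annotation and strand, nothing is given in the sources used here. Entries (82004) were summed per gene name, and 42 entries without a name, at most 0.0148% of a library, were left out.

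Counts were tested with edgeR 4.0.16 in R 4.3.3 by the quasi-likelihood test (TMM, robust, filterByExpr, all 12 libraries, 10045 genes, residual df of 8). The test was also run on simulated counts, drawn independently for each library from the fit's own spread. These held no deviation shared by letter, so that run does not show how the test behaves on these libraries. A call is a Benjamini-Hochberg adjusted p under 0.05, and SE is the log2 fold change over the root of F. DESeq2 1.42.0, other scalings, filters, entry sets and leaving out each library were alternatives. Library totals limit the precision of low genes.

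Same-letter low-sugar libraries deviated together between genotypes (r = 0.716, 0.657 and 0.161 for A, B and C), as a measure from the data and not the labels. Over all groups 8 of 18 pairs exceeded 0.1.

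Named in full were up to 6 called members per comparison and direction by p, the 5 most abundant per kilobase and 9 of known role. Members and lists were chosen with earlier results of these data known.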

Additional observations from a re-analysis of the deposited data

Results flagged for a closer look

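In 8 members the response to sugar differed between mlx1 mutants and wild type by the interaction term of edgeR's quasi-likelihood fit. The interaction log2 fold change was 2.0 for Cyp28d1 (higher in mutants on high sugar in 3 of 3 libraries) and -2.36 for Cyp28d2, which was lower in mutants on high sugar in 3 of 3 libraries.

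It was 4.55 for Cyp4e3, 1.68 for Cyp6w1, 1.30 for Cyp304a1 and 0.79 for Cyp4g1, and -1.76 for Cyp6a23 and -1.40 for Cyp305a1. These 6 lost the call when single libraries were left out.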

How the results depend on the processing

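No called member changed direction under any alternative run. Calls between genotypes on low sugar numbered 11. They were 6 with only the groups compared, 7 with the exon entry of highest mean, 17 with the replicate block on the low-sugar libraries alone (chosen after seeing the data), and 6 to 13 on leaving out 1 library. The 8 interactions became 5 without a filter on low counts, 4 with the replicate block and 16 with a cuticle covariate, and 2 to 10 on leaving out 1 library. The cause was not tested, beyond the fewer samples of some fits. With the replicate block in all 12 libraries, the counts in the other comparisons were 21 and 11 between genotypes on high and low sugar, 28 between diets in mutants and 26 in wild type. Not passing in that fit were Cyp4ac1 and Cyp4d8 between genotypes on high sugar, Cyp305a1, Cyp309a1 and Cyp6g2 between diets in mutants, Cyp9b1 in wild type, and the interactions of Cyp4e3, Cyp4g1, Cyp6a23 and Cyp305a1. Scalings moved the median of all genes by at most 0.04. The planned search of proteins and promoters for motifs was not run. Calls of genes with few counts, such as Cyp4d8 and Cyp6d2, are limited by depth.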
